A study of Mus musculus with 13 samples.

Results

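The transcripts described here encode glutamate receptors, their auxiliary subunits and the postsynaptic scaffold that anchors them, measured in cholinergic neurons of the mouse medial habenula. The set was taken by gene symbol and held 43 genes of the 22682 symbols shared by all 13 count tables. By role it comprised 4 AMPA receptor subunits, 7 NMDA receptor subunits, 5 kainate receptor subunits, 1 delta receptor subunit, 6 metabotropic glutamate receptors, 6 transmembrane AMPA receptor regulatory proteins (TARPs), 2 cornichons, 2 NETO proteins, 4 membrane-associated guanylate kinases (MAGUKs), 3 SHANK proteins and 3 HOMER proteins. All 43 were listed in every table.

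Adult mice carried the Chat-TRAP DW167 transgene, in which the driver of the choline acetyltransferase gene places a GFP-tagged ribosomal protein in cholinergic cells. Ribosomes were then precipitated with anti-GFP beads from dissected medial habenula (translating ribosome affinity purification, TRAP), and the RNA they held was sequenced as the IP. The first group was 6 IP libraries from Gpr151-KO::Chat-TRAP DW167 mice (KO IP, libraries 683, 855, 1099, 1100, 1101 and 1102), which lack a functional gene for the orphan receptor Gpr151. The second was 6 IP libraries from Chat-TRAP DW167 mice with intact Gpr151 (WT IP, libraries 682, 852, 1091, 1092, 1093 and 1094). The reference for both IPs was 1 library of the unpurified homogenate of Chat-TRAP mice (input, library 824). The transgene was present in all 3 groups, so no group without it was measured. Each library pooled 4 mice, except that 852 and 855 pooled 3, and replicates are thus pools of animals. The labels give no drug treatment, although saline appears in most table names and saccharin in that of the input, and no source used here says whether input and IP animals were treated alike.

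Counts assigned to genes ran from 28375912 to 64388596 per library, and the limit set by a count of 0 (3 counts) lay between 0.0502 and 0.121 CPM (counts scaled to the library total, counting error only). Gpr151 itself had 121 to 212 CPM in KO IP, 382 to 589 CPM in WT IP and 66.2 CPM in the input, so the genotype labels were borne out in every library while some Gpr151 reads remained in KO IP. The 18 medial habenula markers summed to 7789 to 14150 CPM in KO IP, 10603 to 14696 CPM in WT IP and 1567 CPM in the input. RNA of other cells was present in all IP libraries and was unevenly spread. Astrocyte markers summed to 390, 493, 2592, 510, 928 and 1800 CPM in KO IP (libraries in the order above), 390, 338, 1428, 331, 547 and 685 CPM in WT IP, and 3338 CPM in the input. Oligodendrocyte markers reached 1672 CPM in KO IP, 886 CPM in WT IP and 3710 CPM in the input, and GABAergic neuron markers 329, 157 and 649 CPM in the same order. Markers of thalamic and lateral habenula neurons lay between 2267 and 3825 CPM in KO IP, between 2187 and 3172 CPM in WT IP and at 5687 CPM in the input. Lists for oligodendrocyte precursors, microglia and vascular cells reached at most 208, 44.5 and 71.3 CPM in KO IP, 173, 32.0 and 47.6 CPM in WT IP, and 234, 74.8 and 53.8 CPM in the input. Hippocampal pyramidal markers, among them Slc17a7, which habenular neurons also express, summed to 661 to 1411 CPM in KO IP, 781 to 1306 CPM in WT IP and 713 CPM in the input. The libraries 1099 and 1102 of KO IP and 1091 of WT IP had the highest astrocyte and oligodendrocyte sums of their genotypes. They also had the highest GABAergic marker sums of their genotypes, with 329, 268 and 157 CPM. For thalamic and lateral habenula markers these were 3825, 3575 and 3172 CPM. Which of these cells contributed to member values was not tested. The calls, ratios and genotype differences that moved most with these libraries are also given without them. No marker of these lists was at 0 in all 12 IP libraries. In bulk libraries such as these, fewer cells of a type and less RNA per cell cannot be told apart.

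Fast excitatory transmission uses AMPA receptors, tetramers of GluA1 to GluA4, whose gating and trafficking depend on TARPs and cornichons. NMDA receptors join the obligatory GluN1 subunit with glutamate-binding GluN2 or glycine-binding GluN3 subunits, and receptors of GluN1 with GluN3A that are gated by glycine alone have been described in the medial habenula. Kainate receptors, G protein-coupled metabotropic receptors and the layered MAGUK, SHANK and HOMER scaffold complete the excitatory postsynapse, and some of these receptors also act on axon terminals, where habenular neurons release glutamate together with acetylcholine.

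Relative to the input, the cholinergic IP carried a reduced and uneven selection of these transcripts. A transcript was called enriched when its CPM, after adding a pseudocount of 1, was at least 2 times that of the input in each of the 6 libraries of a group, and depleted when it was at most the inverse of that in each. Only transcripts that reached 5 CPM in the input, or on average in the IP, were judged, which left out Homer3 alone, at 0.998 CPM in the input. In KO IP 0 of 42 members were enriched, beside 3.41% of 11399 genes, and 9 were depleted, beside 7.11%. In WT IP 1 of 42 was enriched, beside 4.71% of 11434 genes, and 11 were depleted, beside 11.1%. The median log2 ratio of the members was -0.46 in KO IP and -0.71 in WT IP, where the medians of all genes judged were -0.11 and -0.07. Below the input in every library were 22 members in KO IP, beside 3534 of 11399 genes, and 24 in WT IP, beside 4016 of 11434. Above it in every library were 8 members in KO IP, beside 2067 of 11399 genes, and 12 in WT IP, beside 2746 of 11434.

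With 1 input library this rule is a description of size and not a test. An edgeR fit, which has no spread for the single input and borrows that of the IP libraries, tells only how far that 1 input library lay from them. It called 5 members higher in WT IP than in the input, beside 7.25% of 16211 genes, and 10 lower, beside 9.01%. The higher ones were Gria1, Grin3b, Dlg2, Shank1 and Homer2, and the lower ones Grin2a, Grin2b, Grin2c, Grik4, Grid1, Grm4, Cacng2, Cacng3, Cacng4 and Neto1. Scaling mattered for the number enriched. The median log2 ratio of all genes was -0.07 here and 0.16 with TMM scaling, and the 538 enriched and 1274 depleted genes in WT IP became 703 and 917. Relative to that shift, TMM called 4 members enriched (Gria1, Grin3b, Shank1, Homer2) and 10 depleted.

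The number depleted was higher without the libraries with most RNA of glia and other neurons. A rule that asks for every library tends to call more genes when libraries are left out. Without 1099 and 1102, 17 members were depleted in KO IP, beside 1523 of 11432 genes. Leaving out 1091 likewise gave 17 in WT IP, beside 1664 of 11451 genes, the additions being Gria3, Grik1, Grik2, Grm5, Grm7 and Grm8.

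**Figure D1:**
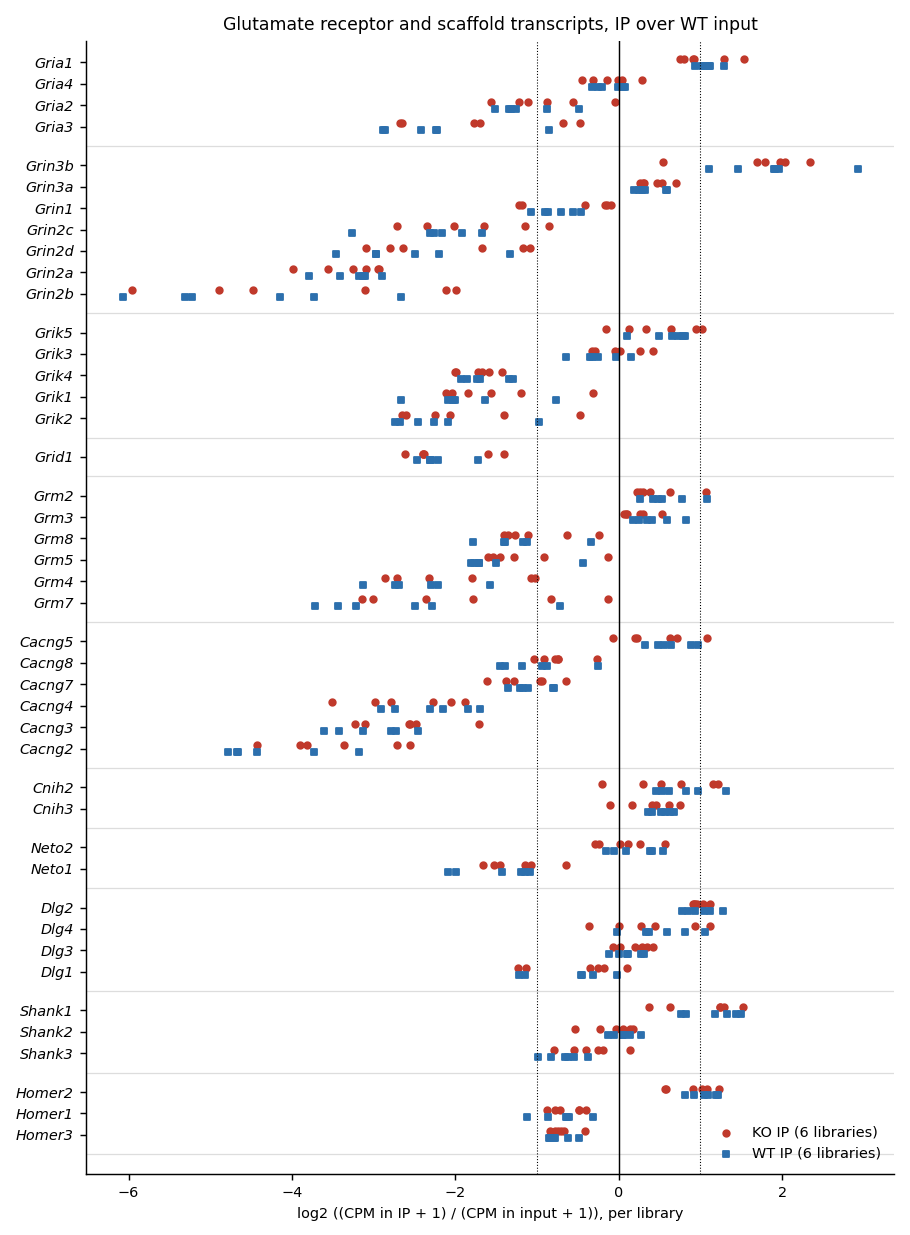
Log2 ratio of CPM in each IP library to CPM in the single input library, after adding 1 to both, for the 43 members grouped by family. Red circles are the 6 KO IP libraries and blue squares the 6 WT IP libraries, and dotted lines mark the 2-fold limits. Grin3b, Gria1, Shank1, Dlg2 and Homer2 lie to the right, while Grin2b and Cacng2 lie farthest to the left, with medians of -3.79 and -3.59 in KO IP and -4.69 and -4.54 in WT IP.

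AMPA receptor transcripts differed most sharply between Gria1 and the others. The 4 subunits share a short pore segment that holds the glutamine/arginine site, the codon at which Gria2 RNA is known to be edited so that assembled receptors pass little calcium. The reference sequences around it, 51 bases of each transcript with that codon in capitals, show what separates the subunits whose proportions are described next (GENCODE M21 transcripts on GRCm38, the build of all coordinates here, chromosomes 11, 3, X and 9 in the order listed).
Gria1: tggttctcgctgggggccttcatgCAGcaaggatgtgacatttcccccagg
Gria2: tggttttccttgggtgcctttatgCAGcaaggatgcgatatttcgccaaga
Gria3: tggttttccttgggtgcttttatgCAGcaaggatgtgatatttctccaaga
Gria4: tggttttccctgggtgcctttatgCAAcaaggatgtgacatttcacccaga
The codon encodes glutamine in all 4 genes, and Gria1 differs from Gria2 at 10 of the 51 bases, while Gria2 and Gria3 differ at 3. Counts per gene carry no information on editing at that codon.

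Gria1 (GluA1) (chr11:57011387-57330244, plus strand) had 370, 416 and 636 CPM in KO IP (lowest, median and highest library), 421, 466 and 539 CPM in WT IP, and 220 CPM in the input. Every IP library was above the input, and the genotypes overlapped. Mean levels were 460 ± 105 CPM in KO IP and 470 ± 39.8 CPM in WT IP (SD, n = 6 each), or 2.09 and 2.14 times the input. Gria2 (GluA2) had 147, 219 and 420 CPM in KO IP, 152, 177 and 310 CPM in WT IP, and 435 CPM in the input. All 12 IP libraries were below the input, with the highest of each genotype being 1099 and 1091. Gria3 (GluA3) had 27.7, 54.2 and 131 CPM in KO IP, 23.9, 35.5 and 101 CPM in WT IP, and 182 CPM in the input. It was again below the input throughout, and the libraries 1099, 1102 and 1091 were well above the other IP libraries. Gria4 (GluA4) stayed near the input, with 120, 155 and 200 CPM in KO IP, 130, 152 and 173 CPM in WT IP, and 164 CPM in the input.

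To compare subunits with one another, CPM was divided by the length of each gene's merged exons and expressed as a percentage of the family within each library, which library scaling cannot change. Gria1 made up 48.7%, 65.0% and 68.8% of AMPA subunit transcripts in KO IP (lowest, median and highest), 56.8%, 66.9% and 68.4% in WT IP, and 33.4% in the input. Gria2 made up 9.05%, 11.9% and 20.7% in KO IP, 9.08%, 10.0% and 14.96% in WT IP, and 25.7% in the input. Thus in every IP library Gria1 took a larger share, and Gria2 a smaller one, than in the input. The lowest Gria1 shares belonged to 1099 and 1102 in KO IP and 1091 in WT IP, and without these the medians were 65.5% and 67.7%. Gria3 had medians of 4.31% in KO IP and 2.93% in WT IP against 17.0% in the input, and Gria4 had 19.8%, 19.7% and 23.9%. With the length of the longest transcript in place of merged exons, the Gria1 median in WT IP was 62.3% and the input share 27.03%.

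**Figure D2:**
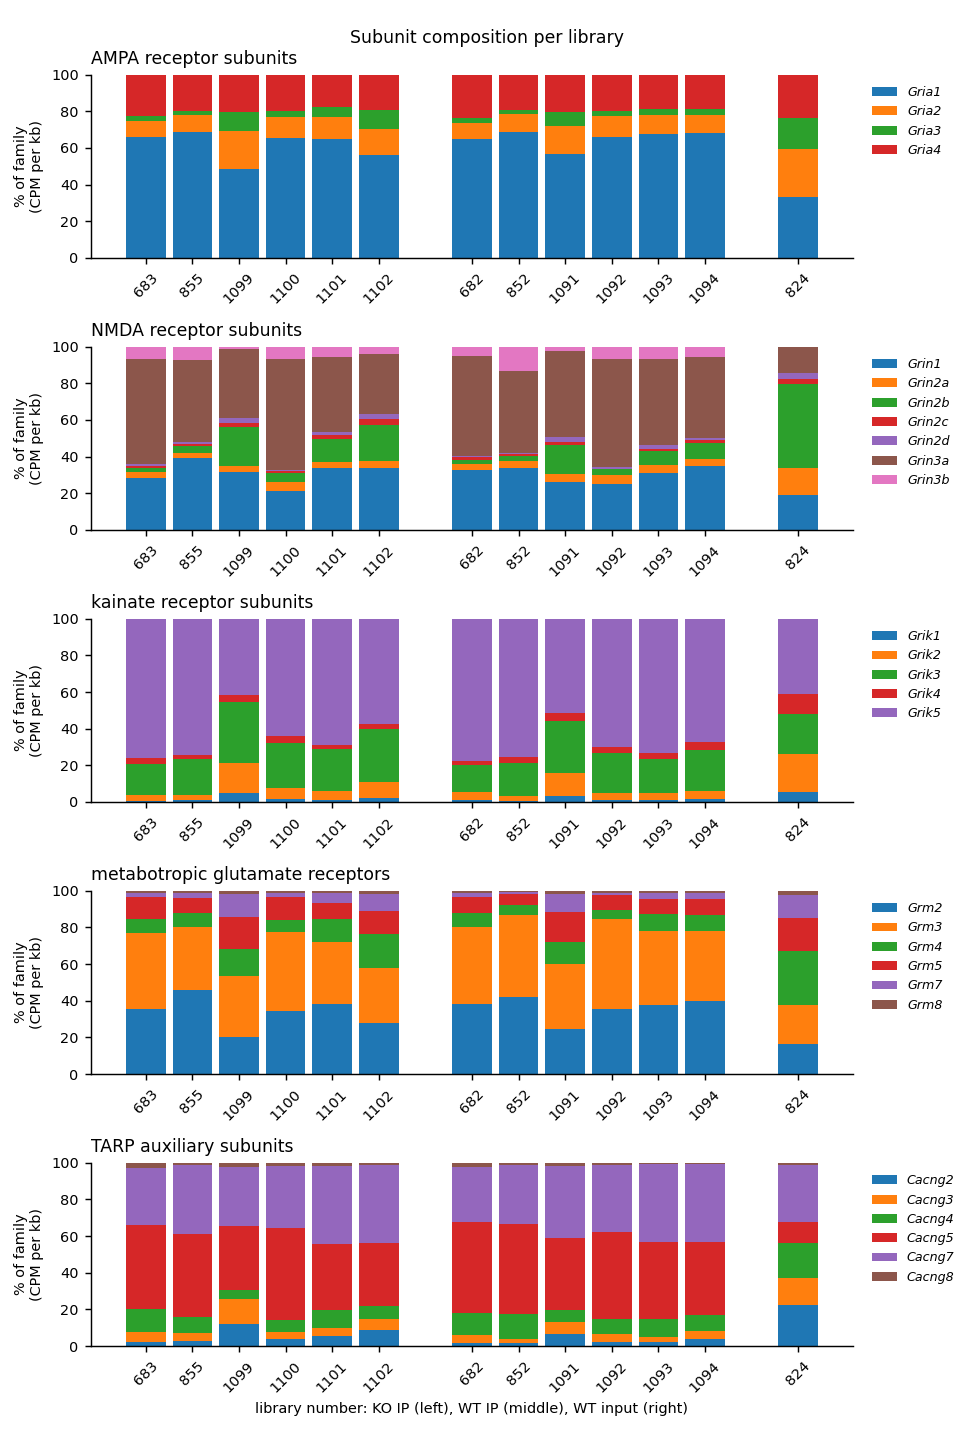
Share of each subunit in the summed CPM per kilobase of its family, as stacked bars to 100%, for each library (KO IP left, WT IP middle, input right). Gria1, Grin3a, Grik5, Grm2 with Grm3, and Cacng5 take larger parts of their families in the IP than in the input, and bars of 1099, 1102 and 1091 lie between those of the other IP libraries and the input for Gria1 and Grik5.

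Among NMDA receptor transcripts, 4 of 7 subunits were depleted in WT IP and 3 in KO IP, beside 11.1% and 7.11% of all genes judged. Grin2b (GluN2B), a glutamate-binding subunit (chr6:135713233-136173511, minus strand), had 14.6, 77.4 and 243 CPM in KO IP, 13.5, 39.3 and 152 CPM in WT IP, and 971 CPM in the input, the highest input level of the family. No IP library came near the input, and again 1099, 1102 and 1091 were the highest of their genotypes. The KO IP mean was lower than the input by a factor of 8.74, and the WT IP mean by a factor of 17.1. Without 1099 and 1102 the factor in KO IP was 19.3, and without 1091 that in WT IP was 25.8, so the gap between the genotypes was narrower without these libraries. Grin2a (GluN2A) had 13.5, 24.7 and 29.2 CPM in KO IP, 15.8, 25.0 and 30.2 CPM in WT IP, and 231 CPM in the input. Its IP values kept within a narrow range that the genotypes shared, and the means were lower than the input by factors of 9.90 and 9.70. Grin2d (GluN2D) had 1.32, 3.69 and 8.37 CPM in KO IP, 0.805, 2.02 and 6.91 CPM in WT IP, and 18.8 CPM in the input. Grin2c (GluN2C), called in WT IP alone, had medians of 2.88 CPM in KO IP and 1.95 CPM in WT IP against 12.7 CPM in the input.

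The GluN3 subunits, which bind glycine, lay on the other side. Grin3a (GluN3A) (chr4:49661611-49845744, minus strand) had 177, 193 and 240 CPM in KO IP, 167, 182 and 222 CPM in WT IP, and 147 CPM in the input. Each IP library exceeded the input, by less than 2-fold, and the genotypes overlapped. Grin3b (GluN3B) was the 1 member called enriched, in WT IP, with 1.90, 6.37 and 9.11 CPM in KO IP, 3.31, 6.49 and 14.2 CPM in WT IP, and 0.998 CPM (44 counts) in the input. It was above the input in all 12 libraries. With an input level under 5 CPM it was judged only because of its IP level, the side on which it is high, so the call supports nothing about the set. In this gene 32.1% of exon bases overlap Tmem259 on the opposite strand, no source used here says whether reads were counted by strand, and a pseudocount of 5 CPM removed the call. Grin1 (GluN1), the obligatory subunit, had 67.4, 129 and 147 CPM in KO IP, 74.6, 91.6 and 114 CPM in WT IP, and 158 CPM in the input, and 13.5% of its exon bases overlap an antisense transcript.

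Per length of merged exons, Grin3a was the NMDA subunit with the largest median share of the IP in both genotypes. It made up 33.0%, 42.7% and 60.4% of the family in KO IP, 44.3%, 47.0% and 59.0% in WT IP, and 13.98% in the input. Grin2b had medians of 8.86% in KO IP and 5.37% in WT IP against 45.5% in the input, where it led. Grin1 medians were 32.5% in KO IP and 31.8% in WT IP, against 19.0% in the input. Without 1099, 1102 and 1091 the Grin3a medians were 51.2% in KO IP and 47.1% in WT IP, and those of Grin2b 4.36% and 3.29%. The lead of Grin3a in KO IP depended on the length used. With the longest transcript, Grin1 led there with a median of 43.8%, against 39.95% for Grin3a. By that length Grin3a still led in WT IP, at 45.8% against 41.4% for Grin1, and the input shares were 16.5% and 31.0%.

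Among kainate receptors, Grik5 (GluK5), a high-affinity subunit that needs a partner from GluK1 to GluK3 to form a channel, was the leading transcript per length. It had 51.5, 81.4 and 117 CPM in KO IP, 62.1, 93.3 and 102 CPM in WT IP, and 57.6 CPM in the input. It exceeded the input in every WT IP library and in 5 of 6 KO IP libraries, 1099 being the exception. Its share of the family was 41.4%, 66.3% and 76.2% in KO IP, 51.6%, 71.9% and 77.5% in WT IP, and 41.2% in the input. Grik2 (GluK2), a partner subunit, had 10.965, 15.99 and 53.2 CPM in KO IP, 10.3, 13.7 and 37.3 CPM in WT IP, and 74.4 CPM in the input. All 12 libraries were under the input, with 1099 and 1091 far above the rest of their genotypes. Grik3 (GluK3) had 42.2, 52.7 and 71.5 CPM in KO IP, 33.8, 43.4 and 59.3 CPM in WT IP, and 53.2 CPM in the input, and so lay on both sides of it. Grik4 (GluK4), depleted in both genotypes, had medians of 4.57 CPM in KO IP and 4.50 CPM in WT IP against 17.1 CPM in the input, and Grik1 (GluK1) had 2.37, 1.71 and 9.95 CPM in the same order.

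Grid1 (GluD1), the delta receptor that binds cerebellins across the synapse, was depleted in both genotypes. Its levels were 5.95, 7.14 and 15.03 CPM in KO IP, 6.72, 7.63 and 11.9 CPM in WT IP, and 41.6 CPM in the input. The 3 libraries with most glial RNA were again the highest, and all libraries were under the input.

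The metabotropic receptors divided by group. The group II receptors Grm2 and Grm3, which couple to inhibitory G proteins, exceeded the input in all 12 IP libraries. Grm3 had 41.9, 45.6 and 58.1 CPM in KO IP, 45.2, 52.4 and 71.4 CPM in WT IP, and 40.1 CPM in the input. Grm2 had medians of 62.8 CPM in KO IP and 70.8 CPM in WT IP, against 49.5 CPM in the input. Per length, Grm3 had median shares of 34.1% in KO IP and 41.2% in WT IP against 21.3% in the input, and Grm2 had 35.0%, 38.1% and 16.4%. The median log2 ratio of Grm3 stayed between 0.18 and 0.67 under the other settings tried.

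The group III receptors Grm4, Grm7 and Grm8, also inhibitory, and the group I receptor Grm5, which signals through phospholipase C, were under the input in every IP library. Grm4 was depleted in both genotypes, with 14.03, 25.6 and 52.6 CPM in KO IP, 11.4, 18.5 and 35.6 CPM in WT IP, and 108 CPM in the input. Grm7 had 4.39, 10.6 and 42.5 CPM in KO IP, 2.62, 5.80 and 28.1 CPM in WT IP, and 46.7 CPM in the input. Here 1099, 1102 and 1091 stood well above the other 9 libraries. Grm5 had medians of 43.8 CPM in KO IP and 34.2 CPM in WT IP against 114 CPM in the input, and Grm8 had 4.89, 4.55 and 12.4 CPM.

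**Figure D3:**
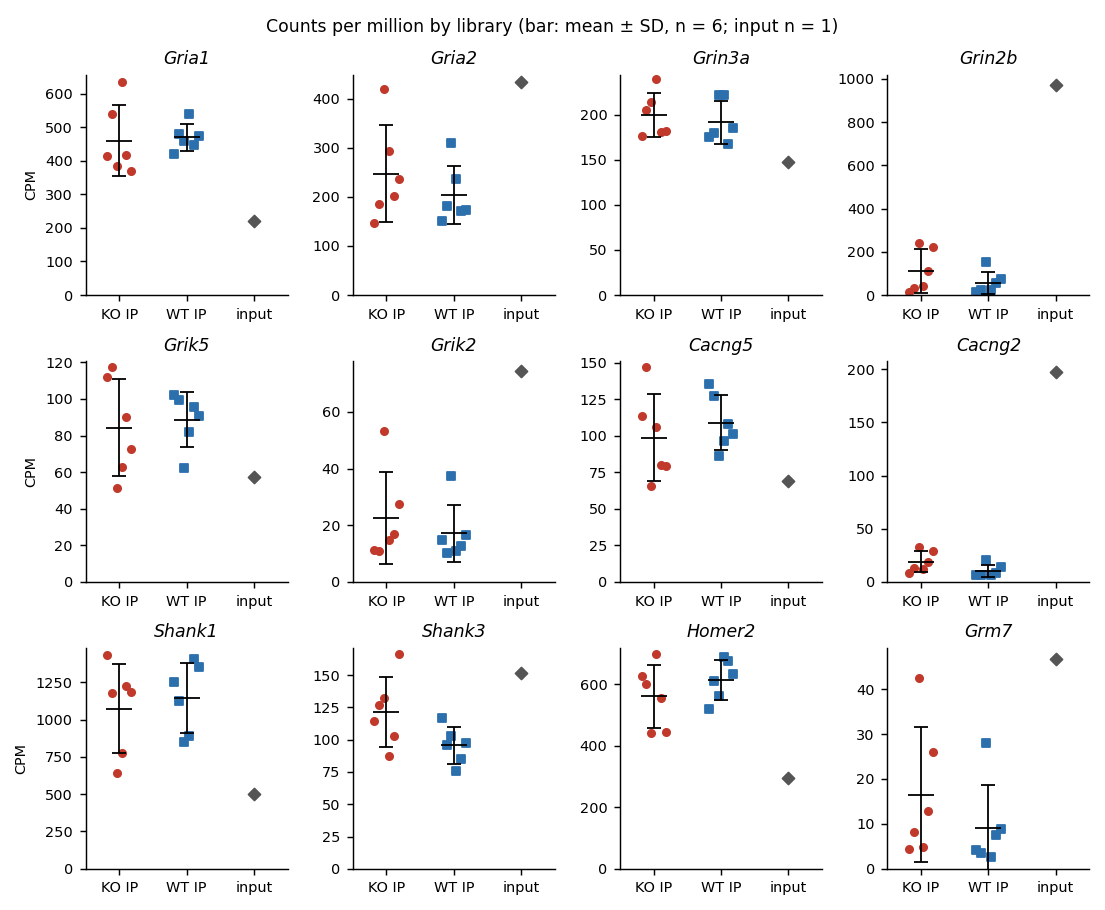
CPM of 12 members in each library, with the mean and SD of each IP group (n = 6) as black bars and the single input as a grey diamond. Gria1, Shank1 and Homer2 lie above the input in every library, and Gria2, Grin2b, Grik2, Cacng2 and Grm7 lie below it in every library, with the genotypes overlapping throughout.

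The auxiliary subunits differed as much as the receptors. Cacng2 (stargazin, TARP gamma-2), which brings AMPA receptors to the synapse (chr15:77991748-78120028, minus strand), had 8.22, 15.7 and 32.9 CPM in KO IP, 6.20, 7.56 and 20.9 CPM in WT IP, and 198 CPM in the input. All IP libraries were far below the input, 1099, 1102 and 1091 being the highest. The mean was lower than the input by a factor of 10.4 in KO IP and 18.8 in WT IP, or 15.2 without 1099 and 1102 and 23.5 without 1091. Cacng3 (gamma-3) had 5.94, 9.97 and 18.8 CPM in KO IP, 4.31, 7.40 and 10.9 CPM in WT IP, and 63.8 CPM in the input. Like Cacng2 and Cacng3, Cacng4 (gamma-4) was depleted in both genotypes, with medians of 18.1 CPM in KO IP and 22.2 CPM in WT IP against 108 CPM in the input. For Cacng4 the libraries 1099 and 1091 were the lowest of their genotypes, at 8.58 and 13.4 CPM.

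Cacng5 (gamma-5), a type II TARP, instead had 65.3, 93.3 and 147 CPM in KO IP, 86.0, 105 and 135 CPM in WT IP, and 68.8 CPM in the input. Every WT IP library and 5 of 6 KO IP libraries were above the input. Its share of TARP transcripts per length was 34.4%, 40.6% and 49.99% in KO IP, 39.0%, 44.9% and 49.8% in WT IP, and 11.3% in the input. Cacng7 (gamma-7), the other type II TARP, had the next largest median share, 35.5% in KO IP and 37.8% in WT IP against 31.1% in the input, although its CPM was under the input in all 12 libraries. Cacng8 (gamma-8) was scarce everywhere, with 2.0045, 2.62 and 4.13 CPM in KO IP, 1.25, 1.96 and 4.15 CPM in WT IP, and 5.17 CPM in the input.

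The cornichons Cnih2 and Cnih3, which bind AMPA receptors beside the TARPs, were above the input in all WT IP libraries and in 5 of 6 KO IP libraries. Cnih2 had medians of 83.3 CPM in KO IP and 87.9 CPM in WT IP against 52.8 CPM in the input, and Cnih3 had 81.3, 87.8 and 59.9 CPM. The NETO proteins, auxiliary subunits of kainate receptors, split. Neto1 was called depleted in WT IP, with medians of 16.1 CPM in KO IP and 15.9 CPM in WT IP against 40.9 CPM in the input, while Neto2 lay near the input at 80.2, 91.0 and 76.6 CPM and made up 86.5%, 89.1% and 71.9% of the pair per length.

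Scaffold transcripts included the most abundant members. Shank1, which links the receptor complexes to HOMER and the cytoskeleton, had 645, 1183 and 1432 CPM in KO IP, 850, 1190 and 1406 CPM in WT IP, and 500 CPM in the input. Every IP library exceeded the input, and 1099 of KO IP was the lowest. Homer2, which couples group I metabotropic receptors to SHANK proteins, had 440, 578 and 696 CPM in KO IP, 519, 621 and 688 CPM in WT IP, and 296 CPM in the input. Dlg2 (PSD-93) had 496, 510 and 576 CPM in KO IP, 451, 527 and 641 CPM in WT IP, and 264 CPM in the input. These 3 transcripts were about 2-fold above the input and in no library below it.

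Their relatives did not share this. Homer1 was under the input in all 12 libraries, with medians of 30.6 CPM in KO IP and 29.7 CPM in WT IP against 46.8 CPM in the input. Homer3 had at most 0.498 CPM in KO IP and 0.423 CPM in WT IP, and 25.4% of its exon bases overlap Ddx49 on the opposite strand. Per length Homer2 made up medians of 94.5% of HOMER transcripts in KO IP and 95.3% in WT IP, against 84.8% in the input, and Shank1 made up 76.8%, 79.6% and 58.8% of SHANK transcripts. Shank2 had medians of 184 CPM in KO IP and 188 CPM in WT IP against 182 CPM in the input. Shank3 had 87.3, 121 and 166 CPM in KO IP, 75.7, 96.7 and 117 CPM in WT IP, and 151 CPM in the input, below the input in all libraries but 1102. Dlg4 (PSD-95) had medians of 399 CPM in KO IP and 435 CPM in WT IP against 310 CPM in the input, Dlg3 (SAP102) had 113, 103 and 95.3 CPM, and Dlg1 (SAP97) had 73.5, 66.0 and 90.9 CPM.

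Other genes of the same synapse, in lists of proteins outside the members, gave values of both kinds. Of 24 AMPA receptor partners, 23 could be judged in WT IP, 5 were enriched (Nptx1, Nptx2, Grip1, Grip2, Olfm2) and 5 depleted (Shisa6, Shisa9, Gsg1l, Nptxr, Prrt1), with a median log2 ratio of 0.04 where that of all genes was -0.07 and 4.71% of all genes were enriched and 11.1% depleted. Nptx1, a secreted pentraxin that clusters AMPA receptors, averaged 308 ± 123 CPM in KO IP and 318 ± 69.9 CPM in WT IP (SD, n = 6 each), against 47.1 CPM in the input, and Nptx2 averaged 101 ± 34.3 and 114 ± 32.2 CPM against 22.1 CPM. The pentraxin receptor Nptxr averaged 1.80 ± 1.72 CPM in KO IP and 1.26 ± 0.958 CPM in WT IP, against 251 CPM in the input, but it shares exons with a same-strand gene, so that its counts depend on the annotation, which differed between IP and input tables. Shisa9, an AMPA receptor auxiliary protein, averaged 50.3 ± 44.9 and 30.0 ± 31.1 CPM against 192 CPM.

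None of 30 other postsynaptic density proteins was enriched in WT IP and 5 were depleted (Baiap2, Lin7a, Lin7b, Nos1ap, Synpo), beside the same 4.71% and 11.1% of all genes, with a median of -0.45. The highest medians of that list were those of the scaffolds Magi3 (1.13) and Frmpd4 (1.11), and the lowest those of Baiap2 (-2.31) and Lin7a (-1.91), on the log2 ratio scale. Of 9 delta receptor ligands and partners, 6 could be judged. The cerebellin Cbln4 was called enriched and C1ql2 depleted, both in WT IP alone, beside the same 4.71% and 11.1% of all genes. Cbln4 averaged 208 ± 69.8 CPM in KO IP and 207 ± 53.0 CPM in WT IP against 77.4 CPM in the input. Cbln2 had a median log2 ratio of 1.12 in WT IP, and C1ql3 and C1ql2 had -2.62 and -2.10. Of 16 genes of glutamate transport and synthesis, 15 could be judged, Slc17a7 (the vesicular glutamate transporter VGLUT1) was enriched with a median of 2.85, Slc38a1 was at 0.20, and the glial transporters Slc1a2 and Slc1a3 were at -3.30 and -3.08.

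Between genotypes, no member differed by the test across all genes. In the edgeR quasi-likelihood test of KO IP against WT IP, with the library set as a term, 42 members were tested and 0 were called at an adjusted p under 0.05, beside 0.014% of 14317 genes, and DESeq2 also called 0 members, beside 0.0855% of its 14039 genes. At an unadjusted p under 0.05 there were 2 members by edgeR, beside 3.06% of all genes, and likewise 2 by DESeq2, beside 4.56%. The log2 fold change was above 0 in 24 of 42, beside 50.4% of all genes, with a median of 0.10 and a range from -0.28 (Cacng4) to 0.84 (Grm7 and Cacng2). The 95% intervals reached 2.10 on the log2 scale, for Grm7, so equal levels are not shown. A narrow interval was that of Dlg2, from -0.25 to 0.24, and that of Gria1 ran from -0.31 to 0.27.

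The 6 members with the smallest p were all higher in KO IP on average, and in each of them the genotypes overlapped. Cacng2 averaged 19.0 ± 9.96 CPM in KO IP and 10.5 ± 5.83 CPM in WT IP (SD, n = 6 each), a log2 fold change of 0.84 with a standard error of 0.33 (edgeR unadjusted p = 0.0257, adjusted p = 0.999). For Shank3 the averages were 122 ± 27.3 and 95.7 ± 14.3 CPM, with a log2 fold change of 0.38 ± 0.17 (SE, edgeR unadjusted p = 0.0481, adjusted p = 0.999). Gria3 averaged 68.2 ± 44.0 and 42.99 ± 28.9 CPM, and Cacng3 10.3 ± 4.59 and 7.30 ± 2.49 CPM, with log2 fold changes of 0.60 ± 0.34 and 0.55 ± 0.32 (SE). Those of Grik3 and Cacng8 were 0.29 ± 0.16 and 0.41 ± 0.23 (SE). Single libraries moved these values. Leaving out 1099 of KO IP gave log2 fold changes of 0.38 for Gria3, 0.23 for Cacng3 and 0.19 for Grik3, leaving out 1102 of KO IP gave 0.24 for Shank3, and leaving out 1091 of WT IP gave 0.93 for Gria3. Cacng2 ran from 0.66 without 1099 to 1.09 without 1091. None of these 6 passed the adjustment in any alternative, the lowest adjusted p being 0.650.

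Most markers of other cells moved in the same direction. All 16 astrocyte, all 16 oligodendrocyte and all 7 tested GABAergic neuron markers had log2 fold changes above 0, with medians of 0.82, 0.73 and 1.16 and no call, while 17 of 18 medial habenula markers were below 0, with a median of -0.21 and 1 call, Gpr151. Of oligodendrocyte precursor markers 7 were above 0 and 0 below. These counts were 11 and 2 for thalamic and lateral habenula neurons, 6 and 2 for microglia, 6 and 2 for vascular cells, and 6 and 3 for hippocampal pyramidal neurons. In the fit with the mean of the GABAergic, thalamic and lateral habenula markers as a covariate, the log2 fold changes of Gria3, Cacng3, Grik3 and Shank3 turned to -0.14, -0.13, -0.04 and -0.01, and that of Cacng2 was 0.007 instead of 0.84. In that fit Grin2b, Grik2, Grm4 and Grm7 had an unadjusted p under 0.05, as did 9.86% of all genes, and none was called. Their log2 fold changes were -0.51, -0.56, -0.40 and -0.74, where they were 0.81, 0.34, 0.57 and 0.84 without the covariate. With the glial marker mean as the covariate, Cacng2 had a log2 fold change of 0.40 and Shank3 of 0.15, and Cacng2 was the 1 member at an unadjusted p under 0.05, beside 3.47% of all genes. Without the libraries 1099, 1102 and 1091, 3 members had an unadjusted p under 0.05, namely Gria3, Grm5 and Cacng2, beside 2.96% of all genes, and none was called by edgeR. The log2 fold changes were then 0.66 for Cacng2, 0.42 for Gria3, 0.28 for Cacng3 and 0.17 for Shank3.

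**Figure D4:**
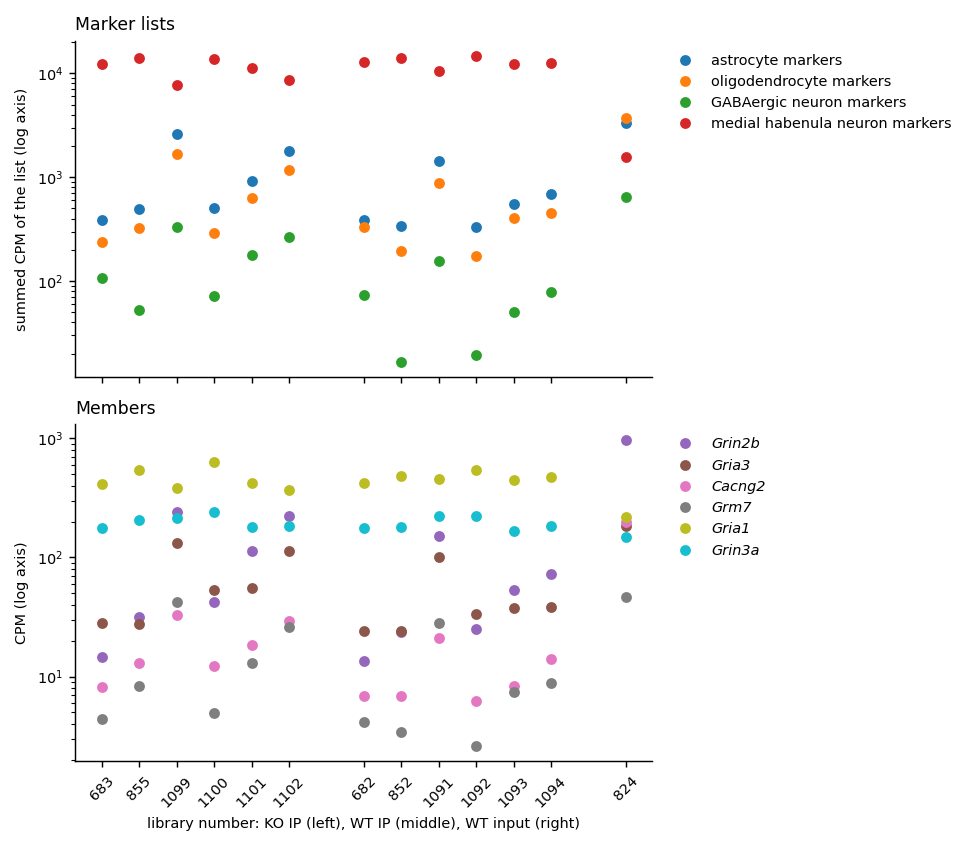
Summed CPM of 4 marker lists (top) and CPM of 6 members (bottom) in each library, on log axes, with KO IP left, WT IP in the middle and the input right. Grin2b, Gria3, Cacng2 and Grm7 are highest in 1099, 1102 and 1091. These libraries have the highest astrocyte, oligodendrocyte and GABAergic neuron sums of their genotypes. Gria1 and Grin3a stay within 370 to 636 CPM and 167 to 240 CPM.

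The earlier libraries (682, 683, 852 and 855) and the later ones (1091 to 1102) were also compared for their genotype difference. In the test of that interaction 0 of 42 members had an unadjusted p under 0.05, beside 2.27% of 14317 genes, and none was called. The 8 later libraries alone gave 0 members at an unadjusted p under 0.05, beside 2.27% of all genes, and the 4 earlier ones gave 2 (Grik3 and Cacng3), beside 4.75%. In the other lists no gene was called in either direction, and the genes at an unadjusted p under 0.05 in the edgeR fit across all genes were Grip2 (log2 fold change -0.34), Synpo (0.58) and the amino acid transporter Slc1a4 (0.36).

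**Figure D5:**
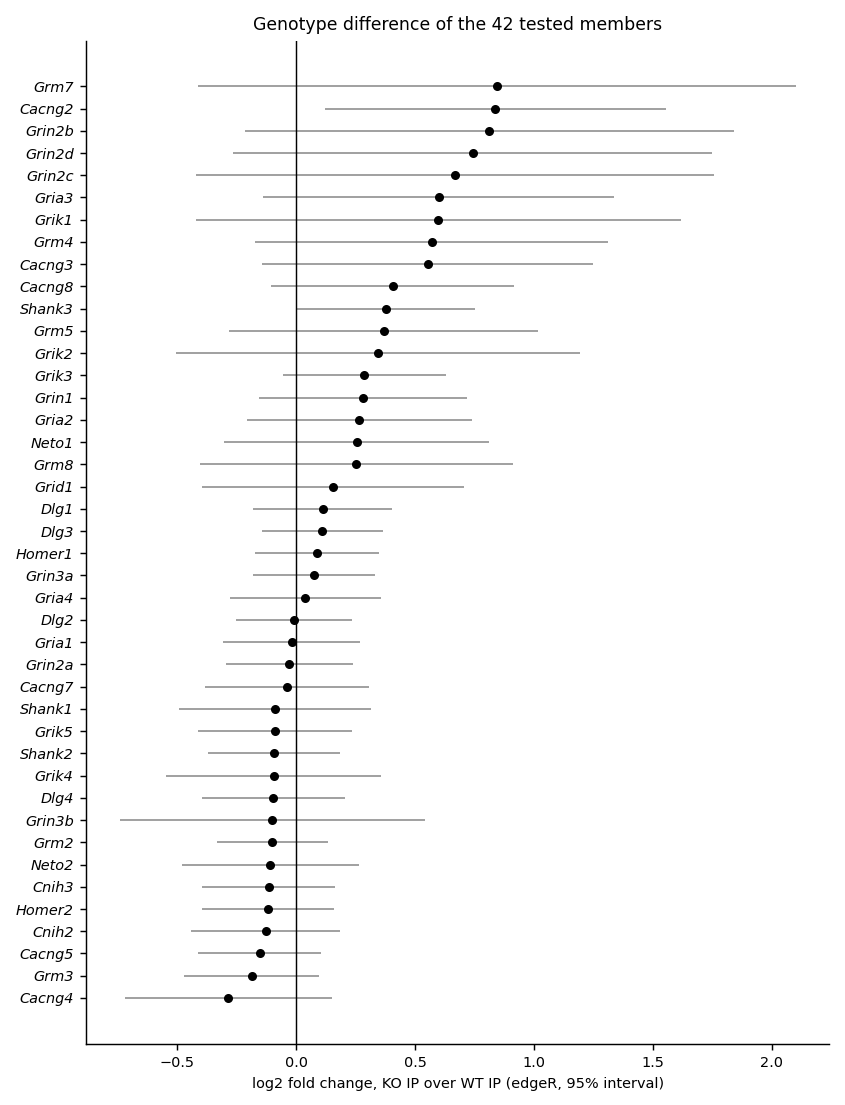
Log2 fold change of KO IP over WT IP for the 42 members tested, with 95% intervals from the edgeR fit across all genes, sorted from highest to lowest. The intervals of Cacng2 (0.12 to 1.55) and Shank3 (0.004 to 0.75) lie above 0 before adjustment, and every other interval spans 0.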

How the data were processed

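Each library had its own deposited table of raw read counts by gene symbol. Tools named in the submitters' processing notes are STAR 2.3.0e, HTSeq and DESeq2, and the build named is mm10. No source used here gives the gene annotation, which differed between tables, which listed 32531 symbols (earlier IP), 24454 (later IP) and 37328 (input). Lines that name no gene did not enter library sizes, and reads outside genes made up 9.44% to 16.6% of alignments. The members were chosen, and the lists written, with earlier results of these data known. No column of another series was present (0 columns).

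Genotypes were compared over the 23857 symbols of all 12 IP tables with edgeR 4.0.16 in R 4.3.3 (filterByExpr with a minimum count of 10 and total of 15, TMM, robust quasi-likelihood test, Benjamini-Hochberg adjustment over all genes, two-sided, threshold 0.05), with the 3 library sets as a term. DESeq2 1.42.0 and the settings in the closing section were alternatives. CPM, ratios to input and shares of a family used the 22682 symbols of all 13 tables in Python 3.11.15, with gene lengths from GENCODE M21. The ribosomal RNA precursor Rn45s, not among those symbols, held between 2.25% and 12.6% of all gene counts per IP library. The test was tried on simulated counts before use. No pair of later libraries of a group differed by as little as sampling noise (17.9 to 556 by chi-square over degrees of freedom).

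Values are given by library for the enriched member, the 8 lowest ratios to input, the highest member per length of each receptor family and the 6 smallest genotype p-values, and other members by medians. From the other lists, the 2 highest and 2 lowest ratios and any call are named, and genes at an unadjusted p under 0.05 were added after values were seen. Protein sequences were not used here.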

Additional observations from a re-analysis of the deposited data

Results flagged for a closer look

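In 12 of the 86 sets of 6 libraries (43 genes in 2 genotypes) the highest library lay far from the other 5, by the gap to its nearest neighbour as a share of the whole range. The rule looked at the lowest library as well, and none was flagged there. Chance alone gives a flag at either end in about 1 in 20 sets if values are normally distributed, which CPM need not be. The genes of 1 library are not independent, and the share flagged among all genes was not computed. The count of 12 is therefore no result about the members. Library 1099 of KO IP held 3 of the 12: Grik1 at 7.83 CPM with the next library at 3.80 CPM, Grm5 at 104 CPM with the next at 60.4 CPM, and Cacng3 at 18.8 CPM with the next at 10.6 CPM. Library 1091 of WT IP held 6. Gria3 was at 101 CPM there and at most 38.2 CPM in the other 5 libraries, Grik2 at 37.3 and 16.7 CPM, and Grid1 at 11.9 and 8.18 CPM. Grm5 was at 84.6 CPM in 1091 and at most 39.8 CPM elsewhere in WT IP, Grm7 at 28.1 and 8.75 CPM, and Grm8 at 9.59 and 5.15 CPM. These are the libraries with the highest astrocyte marker sums of their genotypes, 2592 CPM in 1099 and 1428 CPM in 1091. Their GABAergic marker sums, 329 and 157 CPM, were also the highest of their genotypes. The part of other cells in these values was not tested. The remaining 3 were in earlier libraries. Cacng8 reached 4.13 CPM in 683 (next 2.69 CPM) and Homer3 0.498 CPM in 855 (next 0.259 CPM), both in KO IP, and Grin3b reached 14.2 CPM in 852 of WT IP (next 6.75 CPM).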

How the results depend on the processing

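The count of members called between genotypes was 0 in all 22 alternatives, leave-one-out included (0 to 0). Members at an unadjusted p under 0.05 numbered 0 to 11, with 11 without library 1091 (beside 7.15% of all genes), 8 without 1100 (6.47%), and 0 in the later libraries alone (2.27%); the cause was not tested. With the other-neuron marker covariate, 4 log2 fold changes reversed: Shank3 to -0.011, Grik3 to -0.037, Gria3 to -0.14 and Cacng3 to -0.13. Members enriched in WT IP (1, beside 538 of 11434 genes) numbered 0 with a pseudocount of 5 CPM (407 genes) or a 4-fold limit (183). They numbered 5 with a 1.5-fold limit (952), 4 with TMM (703 of 11272) and 5 over all listed symbols without Rn45s (742 of 11190). Over all listed symbols (chosen after seeing the data) there were 3 (649 of 11131). The later libraries alone gave 2 (619 of 11405) and the earlier alone 2 (1014 of 11495). There were 0 in KO IP (389 of 11399) and 5 by edgeR (1175 of 16211). Leaving out each replicate gave 1 to 2 (540 to 676 genes). Over all genes, enriched calls were 29.7% of calls here, 43.4% with TMM, 46.4% without Rn45s and 41.2% over all listed symbols, with median ratios of -0.07, 0.16, 0.23 and 0.11. Members depleted (11, beside 1274 of 11434 genes) numbered 4 with a 4-fold limit (315) and 20 in the earlier libraries alone (2056 of 11495). They numbered 17 in KO IP without 1099 and 1102 (1523 of 11432, chosen after seeing the data). Leaving out each replicate gave 11 to 17 (1285 to 1664 genes). The Gria1 share in WT IP (66.9%) was 62.3% with the longest transcript and 66.2% to 67.7% leaving out each replicate; the others were 46.8% to 47.1% (Grin3a), 70.2% to 73.5% (Grik5), 40.3% to 41.99% (Grm3) and 42.1% to 47.8% (Cacng5). No paired analysis was possible because the labels give no replicate numbers, apart from the library set term, which matches 683 with 682 and 855 with 852. Without that term 2 members had an unadjusted p under 0.05 by edgeR, beside 1.82% of all genes. With it there were also 2, beside 3.06%. The single input has no replicate check. Depth allows 0.0502 to 0.121 CPM at a count of 0, which touches no member but Homer3.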
